A study of Mus musculus with 17 samples.

Results

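The 10 genes examined here encode proteins of the tight junction: the claudin genes Cldn1, Cldn2, Cldn3, Cldn4, Cldn7, Cldn15 and Cldn23, the occludin gene Ocln, F11r, which encodes junctional adhesion molecule A, and Tjp1, which encodes the scaffold ZO-1. They were taken by name out of the 33840 genes listed for the intestinal libraries and the 24594 identifiers listed for the libraries labelled liver, and all 10 were found in the files of all 17 libraries. RNA was sequenced in bulk from mice that the labels give as WT. There were 2 libraries in each of 4 small intestine groups: crypts after hepatectomy (surgical removal of liver tissue), crypts after sham operation, IEC after hepatectomy and IEC after sham operation. A further 9 libraries are labelled liver with the treatment DSS, 3 each for day 0, day 10 and day 20. The series title concerns a link between gut and liver that sets the fitness of intestinal stem cells, and no time after surgery and no age is given in the labels.

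Tight junctions seal the space between neighbouring epithelial cells near their apical side and set which ions and molecules can pass between the cells. Claudins form the junction strands: some, such as claudin-2 and claudin-15, form channels for small cations and water, while others mainly seal. Occludin and junctional adhesion molecule A are further membrane proteins of the junction, and ZO-1 ties the strands to the actin cytoskeleton. In the small intestine claudin-2 is known mainly from crypts, and in the liver tight junctions close the bile canaliculi and bile ducts.

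The intestinal libraries held 26609786 to 43580050 counts in all and those labelled liver 12742629 to 42669857. Levels are given as CPM, counts scaled to a fixed library size after TMM normalisation, or as CPM per kilobase of exon (RPKM) where genes are compared with each other. In crypts the TMM factors were 1.21 to 1.28 after sham operation and 0.986 to 1 after hepatectomy. In IEC they were 0.968 to 0.973 after sham operation and 0.828 to 0.844 after hepatectomy. Small fold changes between these groups rest in part on this scaling. For hepatectomy against sham, RLE size factors in place of TMM shifted all genes by a median of 0.021 in crypts and 0.0049 in IEC. Leaving out the filter on low counts shifted them by -0.046 and -0.062. The part of the TMM scaling itself in a given change was not tested. Differences are log2 fold changes ± SE with Benjamini-Hochberg adjusted p from edgeR's quasi-likelihood test, called at an adjusted p under 0.05. Since no label ties a library to an animal of its own, a p-value here reflects the spread among these libraries, part of which may be technical. The column headers number the hepatectomy and sham libraries in separate series, so the effect of hepatectomy and that of the series cannot be told apart. In bulk samples, fewer cells of a type and less RNA per cell cannot be told apart either. The content of the libraries labelled day 0 and day 10 went against the liver label. The 10 hepatocyte markers summed to 1121 to 2797 CPM at day 0, 2296 to 3543 CPM at day 10 and 123904 to 126914 CPM at day 20. For the 6 intestinal stem cell markers the sums were 7202 to 8009, 3496 to 5447 and 84.1 to 105 CPM on the same days. None of these markers was at 0 in all libraries of a day. The library labelled day 10 replicate 3 had the lowest total count, and its TMM factor was 1.64, where those of the other 8 libraries labelled liver lay between 0.651 and 1.3. It stood apart from its group: the chi-square of the counts of a pair of libraries, per gene compared, was 199 and 252 for its pairs with replicates 1 and 2, against 66.2 between those. Day 0 replicate 1 stood apart as well, with 91.8 and 84.3 for its pairs, against 7.78 between replicates 2 and 3.

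Promoter sequences of 4 members on which the results turn are shown first. They are the 250 bases before the start site in RefSeq on GRCm38.p6 (mm10), which lists 11 start sites for 9 of the 10 members. Capitals mark matches, on either strand, to TATAAA (the TATA box), TTTAT (the core letters bound by CDX factors), GTTAAT (a half-site of HNF1 factors), CAGGTG (the E-box of Snail and ZEB factors) or GGGCGG (the GC box bound by Sp factors). Cldn2 lies on the plus strand of chromosome X and its window is chrX:139800558-139800807. Cldn15 lies on the plus strand at chr5:136967619-136967868, within the gene as GENCODE draws it. Cldn4 lies on the minus strand at chr5:134946935-134947184, and Cldn1 on the minus strand at chr16:26371840-26372089.
Cldn2: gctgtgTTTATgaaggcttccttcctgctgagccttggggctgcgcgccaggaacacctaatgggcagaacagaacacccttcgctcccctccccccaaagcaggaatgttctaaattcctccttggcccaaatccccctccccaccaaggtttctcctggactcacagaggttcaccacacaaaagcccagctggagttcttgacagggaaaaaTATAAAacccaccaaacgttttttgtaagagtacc
Cldn15: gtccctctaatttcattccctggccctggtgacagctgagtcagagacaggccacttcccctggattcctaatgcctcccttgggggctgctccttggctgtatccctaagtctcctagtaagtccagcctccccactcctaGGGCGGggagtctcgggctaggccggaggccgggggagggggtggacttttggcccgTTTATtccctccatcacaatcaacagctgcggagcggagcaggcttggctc
Cldn4: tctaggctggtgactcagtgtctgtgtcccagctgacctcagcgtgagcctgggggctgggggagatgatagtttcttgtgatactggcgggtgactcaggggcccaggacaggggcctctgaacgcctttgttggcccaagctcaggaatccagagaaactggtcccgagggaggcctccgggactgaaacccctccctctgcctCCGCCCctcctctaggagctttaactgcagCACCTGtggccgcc
Cldn1: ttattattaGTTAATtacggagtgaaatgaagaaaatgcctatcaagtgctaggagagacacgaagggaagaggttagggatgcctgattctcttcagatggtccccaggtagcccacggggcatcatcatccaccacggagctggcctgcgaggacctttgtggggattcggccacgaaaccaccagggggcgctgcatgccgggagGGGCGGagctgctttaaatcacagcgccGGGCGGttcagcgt

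TATAAA was found in 1 of the 11 member promoters, that of Cldn2, 35 bases before the start site, and in 12.4% of all 32851 mouse promoters of the same length. The same letters overlap a TTTAT match on the other strand, 34 bases before the start, and Cldn2 holds another TTTAT 244 bases before it. TTTAT was found in 3 of 11 member promoters (Cldn2, Cldn15 and Tjp1) and in 37.3% of all promoters. GTTAAT was found in that of Cldn1 alone among the 11, and in 6.43% of all. CAGGTG was found in 4 of 11, among them Cldn4, against 17.2% of all, and GGGCGG in 9 of 11, against 32.7% of all. AACCNGTT, the letters bound by Grainyhead-like factors, was found in 0 of 11 and in 1.79% of all. The 11 member promoters held 51.2 to 69.2% G and C, where the median of all promoters was 52.4%. Cldn7 and Ocln have 2 of the 11 each, and those of Ocln overlap. The part of base composition in these counts was not tested. A match describes these letters and not a bound site.

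Most of the members' RNA in the small intestine came from 3 claudin genes. Per kilobase, Cldn7, which encodes a basolateral claudin that binds EpCAM, stood at 636 ± 3.5 RPKM in crypts after hepatectomy and 716 ± 3 RPKM in crypts after sham operation (SD, n = 2 each). Cldn3, a sealing claudin, had 631 ± 17 RPKM in crypts after hepatectomy and 637 ± 25 RPKM in crypts after sham operation. Cldn15 was the third in all 4 intestinal groups, with 199 ± 5.4 RPKM in crypts after hepatectomy and 194 ± 1.6 RPKM in crypts after sham operation. F11r, Cldn2, Ocln and Cldn23 lay between 18.5 and 96.8 RPKM as group means, and Cldn4 between 5.46 and 20.4 RPKM. Tjp1 was lower, with group means of 3.06 to 4.12 RPKM. Cldn1, a sealing claudin of epidermis and liver, had counts of 4 and 18 in crypts after hepatectomy, 3 and 0 in crypts after sham operation, 4 and 1 in IEC after hepatectomy, and 1 and 1 in IEC after sham operation. It was the 1 member left out of the intestinal tests by the filter on low counts.

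**Figure D1:**
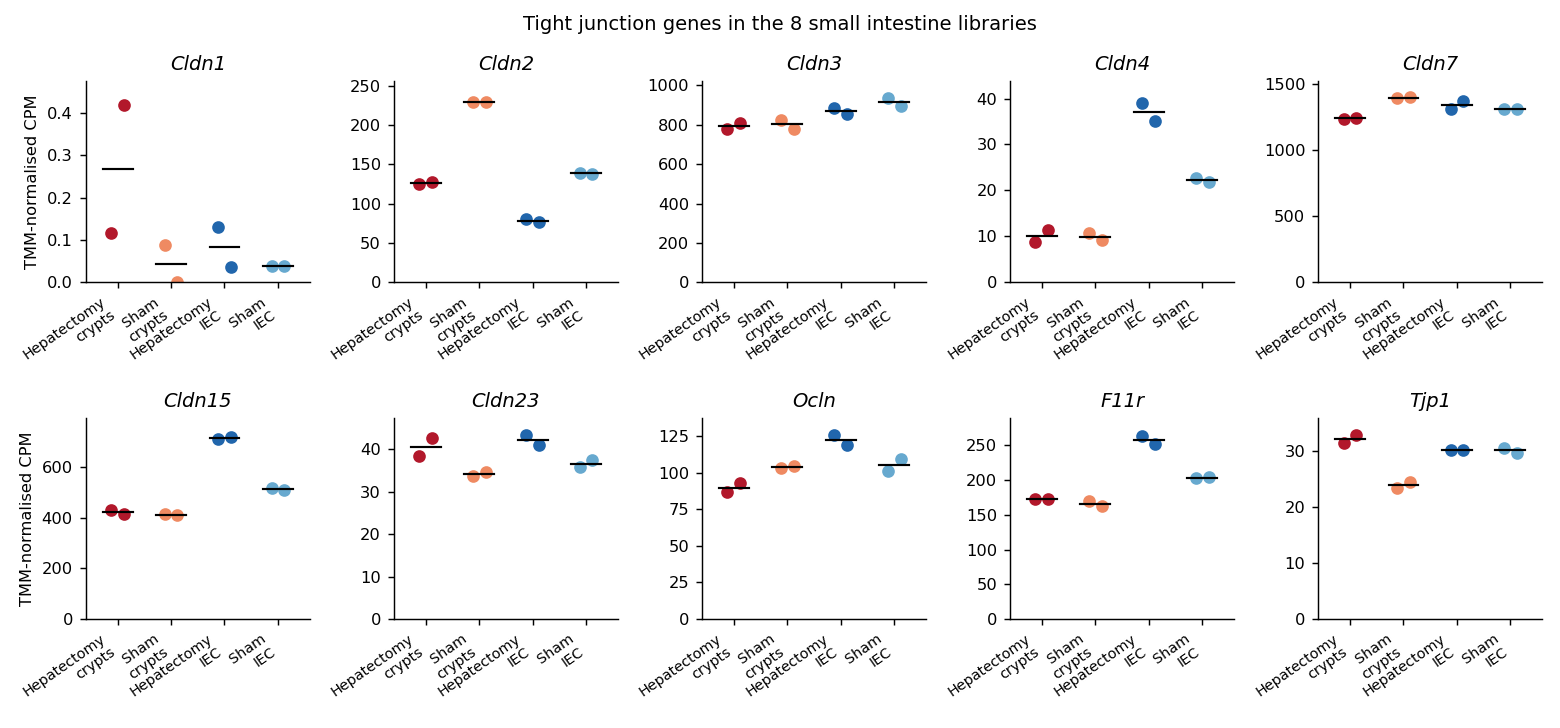
TMM-normalised CPM (y axis, linear) of the 10 genes in the 8 small intestine libraries. Each point is a library and each bar a group mean. For Cldn2 both hepatectomy groups lie below both sham groups, with 126 and 127 CPM in crypts after hepatectomy against 229 and 229 CPM in crypts after sham operation.

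After hepatectomy, Cldn2 fell in both crypts and IEC. It stood at 126 and 127 CPM in crypts after hepatectomy, against 229 and 229 CPM in crypts after sham operation. In IEC it stood at 79.9 and 76.7 CPM after hepatectomy, against 139 and 138 CPM after sham operation. The 4 groups did not overlap, and crypts after hepatectomy lay below IEC after sham operation. Cldn2, the claudin of the cation-selective pore, fell by 0.86 ± 0.05 on the log2 scale in crypts (adjusted p = 4.24e-08) and by 0.82 ± 0.05 in IEC (adjusted p = 5.11e-08). The difference between those effects was -0.03 ± 0.06, with a 95% interval of -0.16 to 0.10 and an adjusted p of 0.769. In this table Cldn2 had the largest fall among the 9 members tested, in both crypts and IEC.

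Cldn15, the other pore-forming claudin among the members, did not move with Cldn2. Its levels were 431 and 414 CPM in crypts after hepatectomy, against 415 and 410.1 CPM in crypts after sham operation, so that these groups overlapped. In IEC it stood at 714 and 721 CPM after hepatectomy, against 519 and 511 CPM after sham operation, with no overlap. The log2 fold change was 0.03 ± 0.04 in crypts (adjusted p = 0.539), and Cldn15 rose by 0.48 ± 0.04 in IEC (adjusted p = 1.45e-06). The effects differed by -0.44 ± 0.06 between crypts and IEC (adjusted p = 0.000229).

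Cldn4 had the largest rise of the 9 members tested in IEC after hepatectomy. This claudin, which with claudin-3 is a receptor for Clostridium perfringens enterotoxin, stood at 39.1 and 35.2 CPM in IEC after hepatectomy, against 22.8 and 21.8 CPM in IEC after sham operation. In crypts it stood at 8.84 and 11.4 CPM after hepatectomy, against 10.6 and 9.21 CPM after sham operation. The IEC groups did not overlap, while the crypt groups did. Cldn4 rose by 0.73 ± 0.11 on the log2 scale in IEC (adjusted p = 0.000191), and its fold change in crypts was 0.04 ± 0.12 (adjusted p = 0.808). The difference of -0.69 ± 0.16 passed the test (adjusted p = 0.0117), but the call was lost when the first library of sham crypts was left out (-0.55, adjusted p = 0.08), and likewise for the first library of IEC after hepatectomy (-0.61, adjusted p = 0.0502).

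The most abundant claudin RNAs moved little. Cldn3 stood at 779 and 809 CPM in crypts after hepatectomy against 825 and 779.8 CPM in crypts after sham operation, and at 885 and 854 CPM in IEC after hepatectomy against 938 and 897 CPM in IEC after sham operation. Its fold changes of -0.01 ± 0.04 in crypts (adjusted p = 0.832) and -0.08 ± 0.04 in IEC (adjusted p = 0.203) did not pass the test, and that in IEC passed with no filter on low counts (-0.14, adjusted p = 0.0122). Of its exons 40 bases overlap an antisense gene, Wbscr25, whose reads cannot be told apart where counting may have ignored strand. Cldn7 stood at 1235 and 1244 CPM in crypts after hepatectomy, against 1390 and 1399 CPM in crypts after sham operation, without overlap. It fell by 0.17 ± 0.04 in crypts (adjusted p = 0.00377). In IEC, where it stood at 1305 and 1368 CPM after hepatectomy against 1309 and 1310 CPM after sham operation, its fold change was 0.03 ± 0.04 (adjusted p = 0.584). The difference of -0.20 ± 0.05 between the effects on Cldn7 (adjusted p = 0.0211) was no longer called when any 1 of 5 libraries was left out, both sham IEC, both sham crypts and replicate 1 of the crypts after hepatectomy (-0.20 to -0.16, adjusted p 0.077 to 0.121).

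Cldn23, which encodes a claudin of differentiated enterocytes, rose slightly in both preparations after TMM scaling. It stood at 38.5 and 42.6 CPM in crypts after hepatectomy against 33.8 and 34.5 CPM in crypts after sham operation, and at 43.5 and 41.1 CPM in IEC after hepatectomy against 35.8 and 37.4 CPM in IEC after sham operation. The groups did not overlap in either preparation, and the rises were 0.25 ± 0.07 in crypts (adjusted p = 0.0119) and 0.21 ± 0.07 in IEC (adjusted p = 0.0323). The call in crypts was lost without either sham crypt library or replicate 2 of the crypts after hepatectomy (0.16 to 0.27, adjusted p 0.0501 to 0.131). The call in IEC was lost with DESeq2 (0.21, adjusted p = 0.0804), with no filter on low counts (0.15, adjusted p = 0.199), and when any 1 of the 4 IEC or 2 sham crypt libraries was left out (0.15 to 0.24, adjusted p 0.056 to 0.218).

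Among the other membrane proteins, Ocln moved in opposite directions in the 2 preparations. It stood at 86.9 and 92.8 CPM in crypts after hepatectomy against 103 and 105 CPM in crypts after sham operation, and at 125 and 119 CPM in IEC after hepatectomy against 101 and 109.6 CPM in IEC after sham operation. The groups did not overlap in either preparation. Ocln fell by 0.21 ± 0.06 in crypts (adjusted p = 0.0126) and rose by 0.21 ± 0.06 in IEC (adjusted p = 0.0116), and the effects differed by -0.42 ± 0.08 (adjusted p = 0.00344). The call in crypts was lost without either sham crypt library or replicate 1 of the crypts after hepatectomy (-0.22 to -0.16, adjusted p 0.0611 to 0.109). The call in IEC was lost with no filter (0.15, adjusted p = 0.0714) and without replicate 1 of the sham IEC, the sham crypts or the IEC after hepatectomy (0.14 to 0.17, adjusted p 0.0564 to 0.168).

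F11r, whose product joins neighbouring cells at the junction and binds ZO-1, stood at 263 and 252 CPM in IEC after hepatectomy, against 202 and 204 CPM in IEC after sham operation. In crypts it stood at 173 and 173 CPM after hepatectomy, against 170.1 and 162 CPM after sham operation. The 4 groups did not overlap. F11r rose by 0.34 ± 0.05 in IEC (adjusted p = 7.95e-05), while its fold change in crypts was 0.06 ± 0.05 (adjusted p = 0.366). The effects differed by -0.29 ± 0.06 (adjusted p = 0.00878), which was no longer called when the first library of sham crypts was left out (-0.21, adjusted p = 0.112).

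Tjp1 showed the reverse, a rise in crypts. It stood at 31.5 and 32.9 CPM in crypts after hepatectomy, against 23.4 and 24.5 CPM in crypts after sham operation, without overlap. In IEC it stood at 30.3 and 30.3 CPM after hepatectomy, against 30.6 and 29.8 CPM after sham operation, with overlap. Tjp1, the scaffold gene, rose by 0.43 ± 0.06 in crypts (adjusted p = 0.000267). Its fold change in IEC was 0.00 ± 0.07 (adjusted p = 0.972), and the effects differed by 0.42 ± 0.09 (adjusted p = 0.00701).

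**Figure D2:**
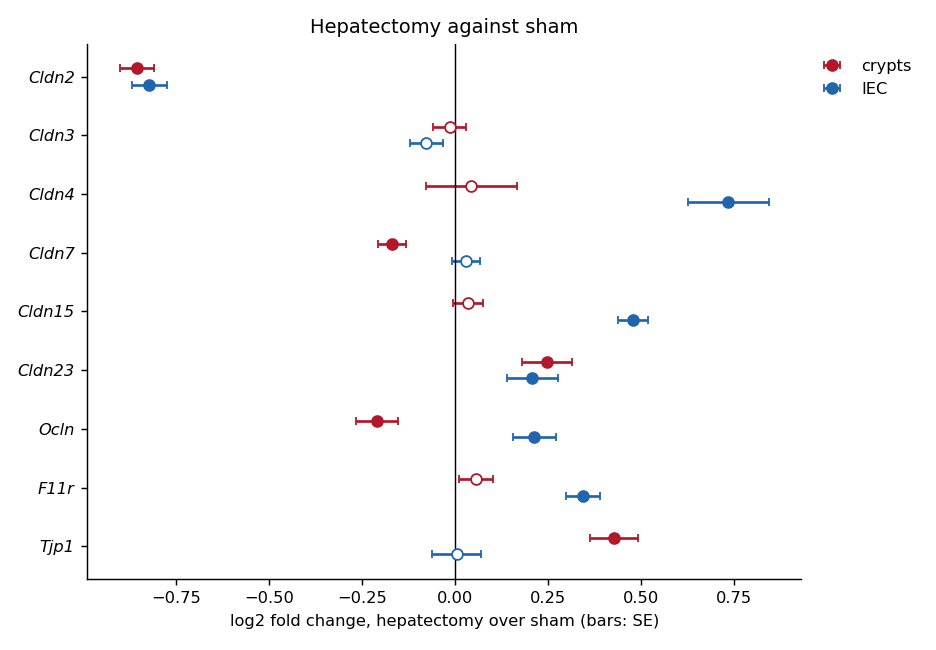
Log2 fold change of hepatectomy over sham (x axis, bars are SE) for the 9 members tested, in crypts (red) and IEC (blue). Filled circles passed an adjusted p under 0.05 and open circles did not. Cldn2 lies at -0.86 in crypts and -0.82 in IEC, while Cldn4, Cldn15 and F11r lie to the right in IEC and near 0 in crypts.

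In all, 2 of 9 members rose and 3 fell in crypts after hepatectomy, where 37.5% of the 18207 genes tested were called, 19.2% higher and 18.3% lower. In IEC 5 of 9 rose and 1 fell, where 37.8% of genes were called, 19.5% higher and 18.3% lower. The effects in crypts and IEC differed for 6 of 9, 1 with a higher and 5 with a lower value in crypts, against 19.2% of all genes, 9.15% higher and 10.1% lower. The members' median fold change was 0.03 in crypts and 0.21 in IEC, beside 0.01 and 0.02 over all genes tested. None of the 9 reached a log2 fold change of 1 in any of these 3 comparisons.

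Markers of cell types moved with hepatectomy beside these genes. All 10 enterocyte markers rose in both preparations, to a summed 11255 to 11335 CPM in crypts after hepatectomy against 4464 to 4528 CPM in crypts after sham operation, and 73062 to 76201 CPM in IEC after hepatectomy against 28460 to 28953 CPM in IEC after sham operation. Of 8 proliferation markers 7 fell in crypts, to a sum of 590.0 to 607 CPM after hepatectomy against 839 to 844 CPM after sham operation. All 8 fell in IEC, with sums of 349 to 352 CPM after hepatectomy against 609 to 615 CPM after sham operation. Of 6 stem cell markers 3 fell in crypts and 4 in IEC. Their sums were 1150 to 1158 CPM in crypts after hepatectomy and 1904 to 1953 CPM in crypts after sham operation, and 815 to 831 CPM in IEC after hepatectomy and 1664 to 1666 CPM in IEC after sham operation. All 7 Paneth cell and all 7 goblet cell markers fell in crypts, while 6 Paneth cell markers fell and 1 rose, and 3 goblet cell markers rose and 3 fell, in IEC. None of these markers was at 0 in a whole group. Of 7 leukocyte markers 6 fell in crypts, and 5 fell and 1 rose in IEC. The part of these markers' cells in the changes of the junction genes was not tested.

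Genes that act with the members were described by lists. The counts of these lists stand beside the shares of all genes tested. Those were 37.5% called in crypts after hepatectomy (19.2% higher, 18.3% lower) and 37.8% in IEC after hepatectomy (19.5% higher, 18.3% lower). In crypts after hepatectomy, 7 of 15 scaffold genes rose and 2 fell (median 0.32), 6 of 14 polarity genes rose and 1 fell (median 0.15), and 7 of 14 genes of actomyosin and small GTPases rose and 1 fell (median 0.17). Magi1, a scaffold, stood at 16.9 ± 0.39 CPM in crypts after hepatectomy and 9.92 ± 1.1 CPM in crypts after sham operation (SD, n = 2 each), a rise of 0.77 ± 0.10. Pard3 and Pard6b, which encode parts of the PAR polarity complex, rose by 0.82 ± 0.11 and 0.97 ± 0.12. Rock1, a kinase that activates myosin, rose by 0.55 ± 0.06. Of 8 other membrane proteins of the junction 1 rose and 3 fell in crypts. Marveld2, which encodes tricellulin, stood at 25.7 ± 0.34 CPM in crypts after hepatectomy and 35 ± 0.94 CPM in crypts after sham operation, a fall of 0.45 ± 0.07 on the log2 scale. Ildr1, another protein of the corners where 3 cells meet, fell by 0.83 ± 0.14, and Igsf5, a JAM family member, rose by 0.26 ± 0.05.

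In the list of EpCAM, matriptase and its inhibitors, 0 of 6 rose and 3 fell in crypts after hepatectomy (median -0.20), and 4 rose and 0 fell in IEC after hepatectomy (median 0.17). For 5 of the 6 the effects differed, against 19.2% of all genes tested. Epcam, whose product holds claudin-7 at the membrane, stood at 1581 ± 5.3 CPM in crypts after hepatectomy and 1839 ± 11 CPM in crypts after sham operation, a fall of 0.22 ± 0.04 on the log2 scale. Spint1, an inhibitor of matriptase, stood at 515 ± 10 CPM in IEC after hepatectomy and 316 ± 5.2 CPM in IEC after sham operation, a rise of 0.71 ± 0.05. St14, matriptase itself, rose by 0.23 ± 0.05 in IEC. Among scaffolds in IEC 2 of 15 rose and 4 fell (median 0.03). Ybx3, a DNA-binding protein held by ZO-1, fell by 0.63 ± 0.08 in IEC. Prkcz, an atypical protein kinase C of the polarity complex, rose by 0.46 ± 0.06 in IEC, where 4 of 14 polarity genes rose and 0 fell (median 0.07).

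Adherens junctions, desmosomes and regulators gave mixed counts. In crypts after hepatectomy 2 of 8 adherens junction genes rose and 1 fell (median 0.02), 1 of 8 desmosome genes rose and 1 fell (median -0.01), 4 of 16 transcription factor genes rose and 3 fell (median 0.00), and 2 of 11 genes of cytokines and their receptors rose and 3 fell (median 0.02). In IEC after hepatectomy the counts in the same order were 3 and 1, 1 and 0, 3 and 4, and 6 and 2, with medians of 0.10, 0.05, 0.00 and 0.45. Cdh1, which encodes E-cadherin, fell by 0.32 ± 0.05 in crypts and by 0.20 ± 0.05 in IEC. Cdh17, the liver-intestine cadherin, rose by 0.46 ± 0.05 in IEC. Klf4, a factor of epithelial differentiation, stood at 62.3 ± 3.6 CPM in IEC after hepatectomy and 42.1 ± 1.5 CPM in IEC after sham operation, a rise of 0.56 ± 0.07. Il13ra1, a receptor chain for interleukin-13, rose by 0.53 ± 0.05 in IEC, and Tnfrsf1b, a receptor for tumour necrosis factor, fell by 0.73 ± 0.10 in crypts.

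Crypts and IEC were then compared within each operation. After hepatectomy Cldn2 was higher, and Cldn4, Cldn15, F11r, Ocln, Cldn3 and Cldn7 were lower in crypts than in IEC, 1 and 6 of 9 where 51.9% of genes were called, 26.3% higher and 25.6% lower. After sham operation Cldn2 was again higher and Cldn4, Tjp1, Cldn15, F11r and Cldn3 were lower in crypts, 1 and 5 of 9 where 38.6% of genes were called, 19.3% higher and 19.3% lower. The members' median was -0.13 after hepatectomy and -0.19 after sham operation, beside 0.01 and 0.02 over all genes.

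The crypt excess of Cldn2 was 0.69 ± 0.05 after hepatectomy (adjusted p = 9.38e-08) and 0.73 ± 0.05 after sham operation (adjusted p = 8.44e-08). Cldn4 was lower in crypts by the largest margin, -1.87 ± 0.11 after hepatectomy (adjusted p = 3.85e-08) and -1.17 ± 0.12 after sham operation (adjusted p = 7.35e-06), with no overlap between crypts and IEC. Cldn15 differed by -0.76 ± 0.04 after hepatectomy (adjusted p = 9.04e-09) and by -0.32 ± 0.04 after sham operation (adjusted p = 4.87e-05). F11r differed by -0.58 ± 0.05 after hepatectomy (adjusted p = 4.46e-07) and -0.29 ± 0.05 after sham operation (adjusted p = 0.000334). How far these values differ between operations is the same contrast as the difference between preparations given above.

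Ocln differed by -0.44 ± 0.06 after hepatectomy (adjusted p = 3.45e-05) and by -0.02 ± 0.06 after sham operation (adjusted p = 0.811). Tjp1 differed by 0.09 ± 0.06 after hepatectomy (adjusted p = 0.273) and by -0.33 ± 0.07 after sham operation (adjusted p = 0.00155). Cldn23 passed neither test, with -0.06 ± 0.07 after hepatectomy and -0.10 ± 0.07 after sham operation. Cldn3 differed by -0.13 ± 0.04 after hepatectomy (adjusted p = 0.027) and -0.19 ± 0.04 after sham operation (adjusted p = 0.00438). The call after hepatectomy was lost with DESeq2, with no filter and without replicate 1 of the sham crypts, the IEC after hepatectomy or the crypts after hepatectomy (-0.13 to -0.07, adjusted p 0.0553 to 0.247), and that after sham operation without replicate 1 of the sham IEC or replicate 2 of the sham crypts (-0.16 in both, adjusted p 0.0504 to 0.0614). Cldn7 differed by -0.11 ± 0.04 after hepatectomy (adjusted p = 0.0288), a call that was lost with DESeq2, with no filter, with only the groups compared in the fit and in 7 of the 8 fits without a library, all but that without replicate 1 of the IEC after hepatectomy (-0.12 to -0.05, adjusted p 0.0589 to 0.414). After sham operation its difference was 0.09 ± 0.04 (adjusted p = 0.0761), which passed without either library of the IEC after hepatectomy (0.09 in both, adjusted p 0.0431 to 0.0433) and with no filter (0.13, adjusted p = 0.00713).

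**Figure D3:**
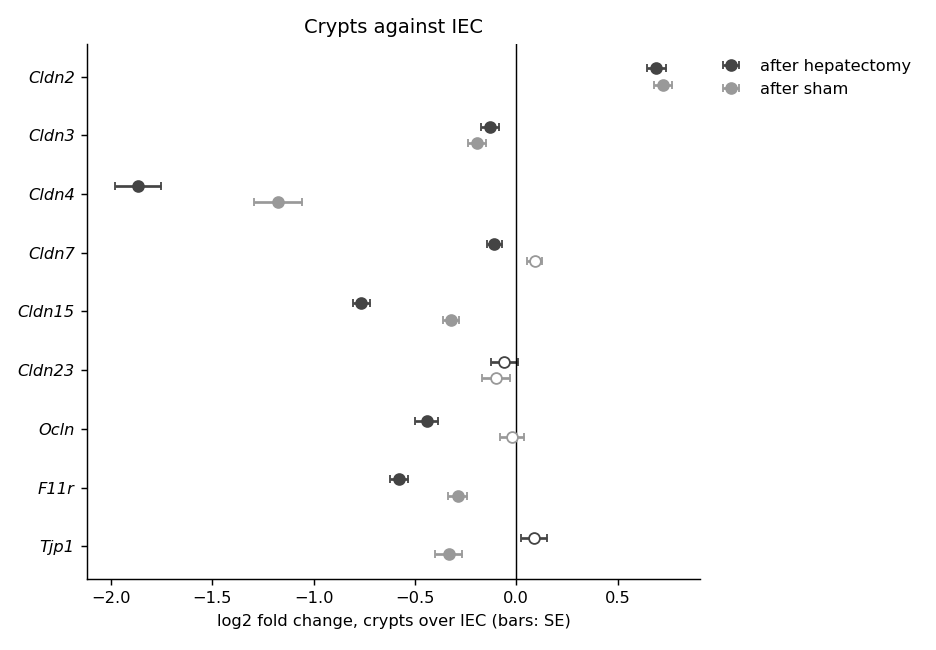
Log2 fold change of crypts over IEC (x axis, bars are SE) for the 9 members tested, after hepatectomy and after sham operation. Filled circles passed an adjusted p under 0.05 and open circles did not. Cldn2 lies at 0.69 after hepatectomy and 0.73 after sham operation, and Cldn4 at -1.87 after hepatectomy and -1.17 after sham operation.

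All 10 enterocyte markers were lower and all 8 proliferation markers higher in crypts than in IEC after either operation, by the test of each gene. The sums above lie in the same directions. Markers of several other cell types differed between crypts and IEC as well. Of 6 stem cell markers 4 were higher and 1 lower in crypts after hepatectomy (median 0.26), and 2 higher and 3 lower in crypts after sham operation (median -0.29). Goblet cell markers were higher in crypts for 0 and lower for 7 of 7 after hepatectomy, and higher for 1 and lower for 5 after sham operation. Of 5 tuft cell markers 5 were lower in crypts after hepatectomy and 4 after sham operation, and of 7 enteroendocrine markers 5 and 7. All 5 erythroid markers were lower in crypts after either operation. Paneth cell markers ran against the crypt label, with 0 of 7 higher in crypts, and 7 lower after hepatectomy and 6 lower after sham operation. Their sums were 680.4 to 684 CPM in crypts after hepatectomy against 2642 to 2731 CPM in IEC after hepatectomy, and 1508 to 1656 CPM in crypts after sham operation against 4216 to 4475 CPM in IEC after sham operation. The part of cell make-up in the crypt and IEC values of the junction genes was not tested. Among genes that act with the members, Amotl2, which encodes the scaffold angiomotin-like 2, was lower in crypts by a log2 fold change of -2.07 ± 0.17 after hepatectomy and -2.02 ± 0.18 after sham operation. Prkci, the other atypical protein kinase C, was higher in crypts by 1.61 ± 0.15 after hepatectomy and 1.10 ± 0.15 after sham operation. Cdx1, an intestinal homeobox factor, was higher in crypts after sham operation by 1.39 ± 0.18, with 232 ± 49 CPM in crypts and 88.6 ± 10 CPM in IEC.

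The make-up of the claudin RNA was compared as shares of the summed RPKM of 18 claudin genes. Cldn3 and Cldn7 made up 38.3 to 43.4% each in the 4 intestinal groups. The share of Cldn15 was 12.9 ± 0.5% in crypts after hepatectomy and 11.8 ± 0.07% in crypts after sham operation, and 18.9 ± 0.1% in IEC after hepatectomy and 14 ± 0.06% in IEC after sham operation (SD, n = 2 each). The share of Cldn2 was 2.47 ± 0.002% in crypts after hepatectomy and 4.17 ± 0.07% in crypts after sham operation, and 1.32 ± 0.04% in IEC after hepatectomy and 2.41 ± 0.01% in IEC after sham operation. The sum itself was 1539 ± 18 RPKM in crypts after hepatectomy and 1650 ± 23 RPKM in crypts after sham operation, and 1790 ± 4.1 RPKM in IEC after hepatectomy and 1726 ± 25 RPKM in IEC after sham operation. In IEC the leading gene depended on the gene length used. Over all exons Cldn3 made up 38.6 ± 1% and Cldn7 38.3 ± 1% in IEC after hepatectomy, and Cldn3 42.2 ± 0.7% and Cldn7 38.9 ± 0.6% in IEC after sham operation. With the longest transcript in place of all exons, Cldn7 made up 46.6 to 52% and Cldn3 31.7 to 35.2% in the 4 intestinal groups. Over the member claudins in all groups, those labelled liver included, 38 shares moved by at least their SD with that length and 11 by less.

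**Figure D4:**
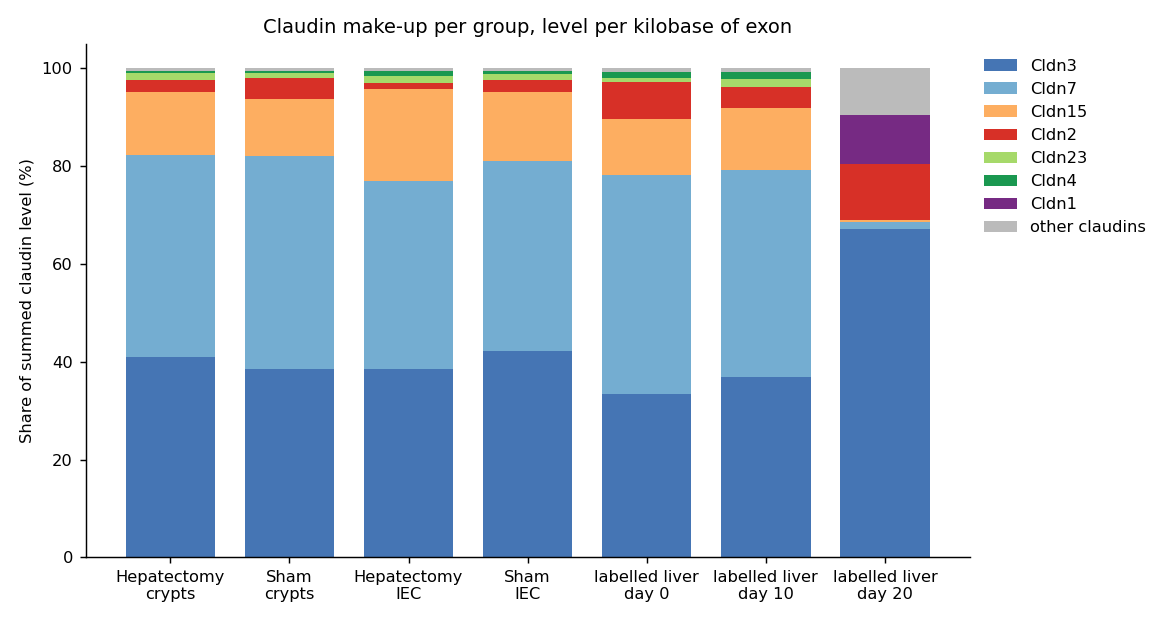
Share of the summed claudin level (y axis, percent, RPKM over all exons, means of the libraries of a group) in the 7 groups. Cldn3, Cldn7 and Cldn15 fill most of each bar in the first 6 groups, while at day 20 Cldn3 makes up 67.2%, Cldn2 11.4% and Cldn1 9.94%.

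For each member the 3 genes with the most similar profile over the 8 intestinal libraries were found among 9368 genes, by the root mean square difference of centred log2(CPM + 0.1). For Cldn2 these were Sqle, Dlgap5 and P2ry6, with differences of 0.0435 to 0.0679, where Cldn2 itself varied by 0.549 about its mean. Sqle is an enzyme of cholesterol synthesis and Dlgap5 a protein of the mitotic spindle. For Cldn15 they were Bsg, Adss and Tspan3 (0.036 to 0.0446), for Cldn4 Lhfpl2, Cyp2c55 and Ifnar2 (0.116 to 0.134), and for F11r Ppip5k2, Itgb4 and Map2k1 (0.0297 to 0.0335). For Ocln they were Tmem183a, Golga5 and Ifngr1 (0.0453 to 0.0524), and for Tjp1 Sh3bgrl, Atn1 and Cflar (0.0478 to 0.0509). For Cldn23 they were Birc2, Fbxo9 and Gpa33 (0.0388 to 0.0464), where Cldn23 varied by 0.128. Cldn7 and Cldn3 varied least among the 9 members tested, by 0.0636 and 0.0916, and their nearest genes were Psmd8, Zfr and Ptpa (0.0275 to 0.0316) for Cldn7 and Cast, Rbm42 and Stx18 (0.0354 to 0.039) for Cldn3.

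In the libraries labelled liver, day 20 stood apart from day 0 and day 10 in its claudins. Cldn1 had 0.538, 0.892 and 0.873 CPM at day 0, 0.818, 1.39 and 3.86 CPM at day 10, and 176, 181 and 165 CPM at day 20. Day 20 did not overlap the other days, while day 10 overlapped day 0. Cldn1 was higher at day 20 than at day 0 by 7.81 ± 0.45 (adjusted p = 4.01e-09) and higher than at day 10 by 6.49 ± 0.42 (adjusted p = 1.6e-08). The rise of 1.32 ± 0.44 at day 10 over day 0 (adjusted p = 0.0301) was lost with only the groups compared in the fit (1.26, adjusted p = 0.125), without day 0 replicate 1 (0.97, adjusted p = 0.121) and without day 10 replicate 3 (0.44, adjusted p = 0.214).

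Cldn7, Cldn15, Cldn4 and Cldn23 were far lower at day 20 than at day 0, whereas Cldn3 and Cldn2, given after them, fell less. Cldn7 had 1497, 1152 and 1113 CPM at day 0, 971, 958 and 847 CPM at day 10, and 12.4, 8.74 and 7.78 CPM at day 20. Cldn15 had 432, 319 and 299.7 CPM at day 0, 316, 281 and 312 CPM at day 10, and 4.45, 4.25 and 2.63 CPM at day 20. Cldn4 had 35.7, 29.2 and 30.5 CPM at day 0, 29.6, 25.5 and 28.7 CPM at day 10, and 0.405, 0.232 and 0.36 CPM at day 20. For each of these genes all day 20 libraries lay far below all others. The fold changes of day 20 against day 0 were -7.02 ± 0.28 for Cldn7, -6.53 ± 0.26 for Cldn15 and -6.56 ± 0.23 for Cldn4 (adjusted p 1.06e-10 to 2.04e-10). Cldn23 had 28.7, 20.7 and 17.7 CPM at day 0, 33.3, 28.4 and 33.7 CPM at day 10, and 9, 2 and 6 counts (0.331, 0.0774 and 0.216 CPM) at day 20, a fold change of -6.71 ± 0.34 against day 0 (adjusted p = 1.27e-09).

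At day 10 against day 0, Cldn7 and Cldn23 depended on the fit. Cldn7 gave -0.44 ± 0.22 (adjusted p = 0.112), which passed with no filter (-0.64, adjusted p = 0.0361) and with only the groups compared (-0.52, adjusted p = 0.0422). Cldn23 gave 0.51 ± 0.22 (adjusted p = 0.0803), which passed with DESeq2 (0.53, adjusted p = 0.0478), under the stricter filter (0.70, adjusted p = 0.0314) and without day 0 replicate 1 (0.61, adjusted p = 0.0447). With any other 1 library left out it did not pass, down to 0.21 without day 0 replicate 3 (adjusted p 0.515).

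Cldn3 and Cldn2 remained well measured at day 20. Cldn3 had 742, 563 and 522 CPM at day 0, 539.5, 510.4 and 509 CPM at day 10, and 327, 283 and 309 CPM at day 20, with day 20 below all others. Its fold change at day 20 was -0.99 ± 0.18 against day 0 (adjusted p = 0.000272) and -0.76 ± 0.18 against day 10 (adjusted p = 0.00203). Cldn2 had 404, 340.1 and 332 CPM at day 0, 195, 149.6 and 146 CPM at day 10, and 137, 139 and 135 CPM at day 20, without overlap between days. Cldn2 fell by 1.13 ± 0.16 at day 10 against day 0 (adjusted p = 0.000874) and by 1.39 ± 0.16 at day 20 against day 0 (adjusted p = 5.36e-06). Day 20 against day 10 gave -0.25 ± 0.16 (adjusted p = 0.177), and -0.32 (adjusted p = 0.0154) with only those groups in the fit and without day 10 replicate 3. With 1 library left out of the fit over all days it did not pass in any of the 9 fits, and the values ran from -0.314 to -0.00362, the smallest change without day 10 replicate 1 (adjusted p 0.988).

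Cldn2 lies on the X chromosome, and transcripts of the sex chromosomes differed between the days. Xist, the RNA of the inactive X chromosome, had medians of 24.1 CPM for day 0, 489.7 CPM for day 10 and 1.86 CPM for day 20, and Eif2s3y, a gene of the Y chromosome, had 34.9, 0.693 and 70.6 CPM. Ddx3y, another gene of the Y chromosome, had medians of 20.9, 0.978 and 69.5 CPM. Both Y chromosome genes were thus low at day 10 alone, where Xist was highest. The part of these transcripts in the values of Cldn2 or of any other member was not tested. In the comparisons that involve day 10, the sex of the mice and the day cannot be told apart. Paneth cell markers, all 7 measured, summed to 34040 to 46543 CPM at day 0, 6685 to 93735 CPM at day 10 and 398 to 525 CPM at day 20.

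Occludin, junctional adhesion molecule A and ZO-1 were measured on all 3 days. Ocln had 107, 124 and 124 CPM at day 0, 94.2, 66.5 and 90.3 CPM at day 10, and 23.6, 25.9 and 25.8 CPM at day 20, without overlap. It fell by 2.24 ± 0.16 at day 20 against day 0 (adjusted p = 4.04e-08) and by 0.50 ± 0.16 at day 10 against day 0 (adjusted p = 0.0228). The day 10 call was lost under the stricter filter (-0.32, adjusted p = 0.117) and without day 10 replicate 2 (-0.38, adjusted p = 0.0637), and without day 10 replicate 1 the change was -0.76.

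F11r had 171, 129.7 and 122 CPM at day 0, 106, 96.4 and 112 CPM at day 10, and 102, 93.8 and 97.9 CPM at day 20, with day 0 above the other days, which overlapped. It fell by 0.43 ± 0.15 at day 10 (adjusted p = 0.0399) and by 0.52 ± 0.15 at day 20 (adjusted p = 0.0085), both against day 0. The day 10 call was lost under the stricter filter (-0.24, adjusted p = 0.185), and when day 10 replicate 2 or any 1 of the 3 libraries of day 20 was left out (-0.47 to -0.40, adjusted p 0.0542 to 0.0976), and without day 0 replicate 3 the change was -0.68. Tjp1 had 7.12, 12.6 and 11.9 CPM at day 0, 22.1, 22.4 and 14.5 CPM at day 10, and 16.6, 21.3 and 18.1 CPM at day 20, with day 0 below the other days, which overlapped. It rose by 0.90 ± 0.24 at day 10 (adjusted p = 0.0121) and by 0.82 ± 0.24 at day 20 (adjusted p = 0.00734) against day 0. Its counts were 291, 580 and 462 at day 0 and 451, 552 and 502 at day 20. The libraries held 29874354 to 36717028 counts in all at day 0 and 39609862 to 42669857 at day 20. TMM factors were 1.11 to 1.3 and 0.651 to 0.655 on these days. At day 20 against day 0 all genes shifted by a median of 0.0042 with RLE size factors and -0.098 with no filter. The part of the TMM scaling itself in the day 20 rise was not tested. The day 10 call was lost with only the groups compared in the fit (0.79, adjusted p = 0.0628), without day 0 replicate 1 (0.58, adjusted p = 0.0721) and without day 10 replicate 1 (0.67, adjusted p = 0.0589).

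**Figure D5:**
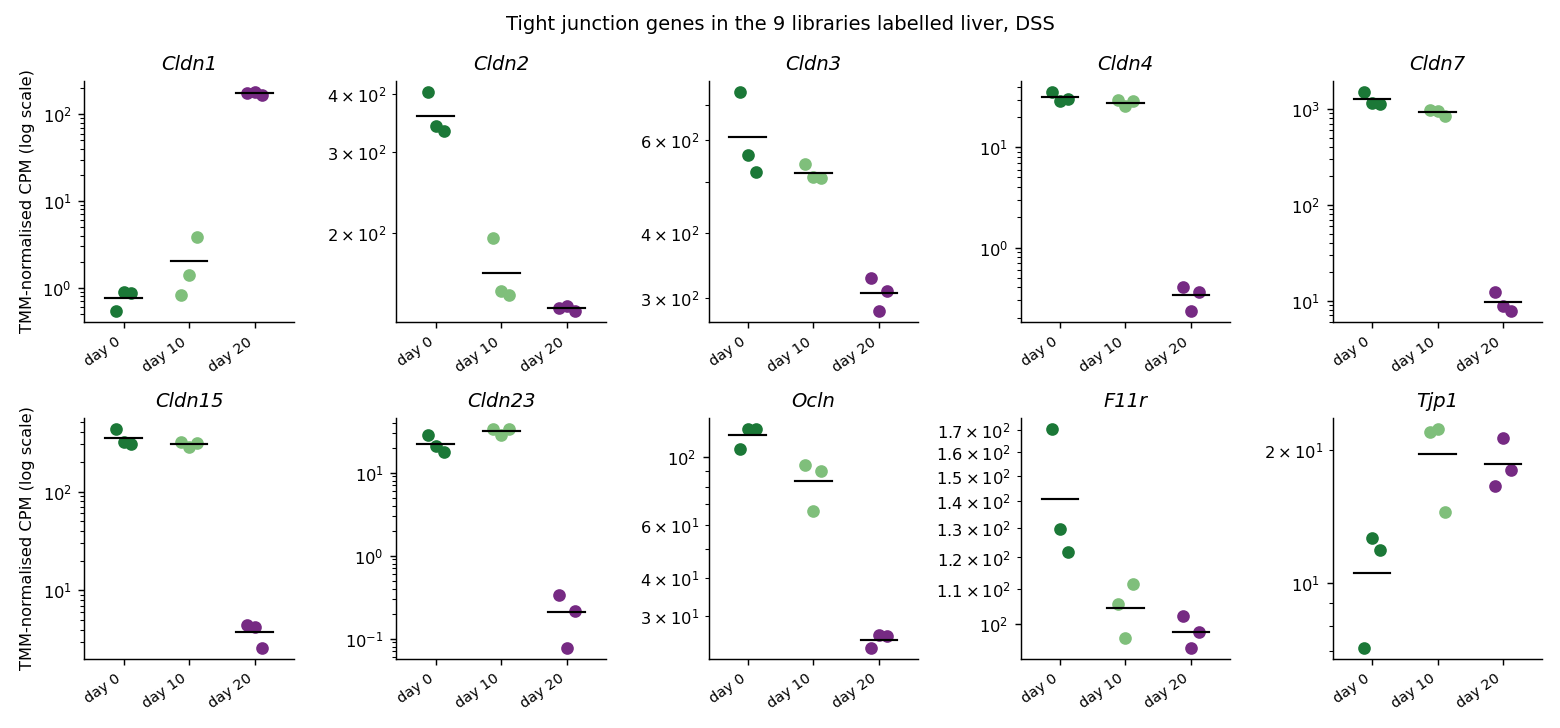
TMM-normalised CPM (y axis, log scale with its own range for each gene) of the 10 genes in the 9 libraries labelled liver, by day of DSS. Each point is a library and each bar a mean of 3. Cldn1 reaches 176, 181 and 165 CPM at day 20, while Cldn4, Cldn7, Cldn15 and Cldn23 are near the bottom of their panels there.

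At day 10, 2 of 10 members were higher than at day 0 (Cldn1 and Tjp1) and 3 lower (Cldn2, Ocln and F11r), where 43.6% of the 16694 genes tested were called, 24.7% higher and 18.8% lower. At day 20, 2 of 10 were higher than at day 0 and 8 lower, where 71.4% of genes were called, 33.3% higher and 38.1% lower. Against day 10, 1 was higher and 6 lower at day 20, where 71.1% were called, 30.8% higher and 40.3% lower. The members' medians were -0.22, -1.81 and -1.25 in these comparisons, beside 0.10, -0.16 and -0.21 over all genes. Of 10 hepatocyte markers 9 were higher at day 20 than at day 0 and 9 higher than at day 10, and of 6 stem cell markers 6 and 6 were lower, so the tissue of a library and its day cannot be told apart. The transcripts of the sex chromosomes differed by day as well. Those of the Y chromosome were low at day 10 alone, so in the comparisons that involve day 10 sex and day cannot be told apart either. Comparisons that involve day 10 rest in part on replicate 3, and those that involve day 0 in part on replicate 1, which stood apart from their groups.

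Claudins outside the 10 filled part of the claudin RNA at day 20. Cldn12, which is linked to calcium uptake, had 24.2, 44.8 and 45.6 CPM at day 0, 28.2, 17.5 and 25.3 CPM at day 10, and 70.2, 70.2 and 64.7 CPM at day 20. The rise of Cldn12 at day 20 over day 0 was 0.84 ± 0.23 (adjusted p = 0.00578), and 0.56 without day 0 replicate 1. Its counts were 990, 2061 and 1776 at day 0 and 1908, 1815 and 1796 at day 20. The part of the TMM scaling in this rise was not tested. Cldn5, the claudin of endothelium, rose by 6.28 ± 0.51 at day 20 over day 0, to 13.7 ± 0.73 CPM at day 20 against 0.168 ± 0.13 CPM at day 0 (SD, n = 3 each). Of 6 endothelial markers, Cldn5 among them, 5 rose at day 20 over day 0. Cldn14 rose by 5.05 ± 0.54 and Cldn8 fell by 2.94 ± 0.50. As shares of the summed claudin RPKM at day 20, Cldn3 made up 67.2 ± 2%, Cldn2 11.4 ± 0.6%, Cldn1 9.94 ± 0.7%, Cldn12 4.47 ± 0.3%, Cldn5 2.69 ± 0.2%, Cldn14 2.18 ± 0.1% and Cldn7 1.36 ± 0.3% (SD, n = 3). These shares use all exons, and most shares of the member claudins over all groups moved with the gene length, as given above. The sum was 1441 ± 249 RPKM at day 0, 1121 ± 53 RPKM at day 10 and 362 ± 17 RPKM at day 20.

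Partners of the members at day 20 were described against day 0, where 71.4% of all genes tested were called, 33.3% higher and 38.1% lower. In the list of EpCAM, matriptase and inhibitors 1 of 6 rose and 5 fell (median -4.81). Epcam stood at 16 ± 2.9 CPM at day 20 and 1956 ± 364 CPM at day 0, and Hpn, the hepatocyte protease hepsin, at 703 ± 19 CPM at day 20 and 7.12 ± 0.81 CPM at day 0. Of 16 scaffold genes 6 rose and 7 fell (median 0.12), and Cgnl1, which encodes paracingulin, rose by 4.61 ± 0.24. Of 11 other membrane proteins 6 rose and 4 fell (median 0.73), with Jam2 5.29 ± 0.48 higher and Marveld3 at -5.74 ± 0.22. Of 8 adherens junction genes 2 rose and 5 fell (median -0.92), and Cdh1 fell by 2.98 ± 0.28, to 48.7 ± 3.5 CPM at day 20 against 384 ± 150 CPM at day 0. Of 14 polarity genes 2 rose and 6 fell, of 15 genes of actomyosin and small GTPases 4 rose and 7 fell, of 8 desmosome genes 0 rose and 5 fell, of 18 transcription factor genes 5 rose and 10 fell, and of 13 genes of cytokines and receptors 7 rose and 5 fell. Vdr, the vitamin D receptor, fell by 6.92 ± 0.24 and Klf5 by 6.31 ± 0.25.

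At day 10 against day 0, 43.6% of all genes tested were called, 24.7% higher and 18.8% lower. The scaffolds had 8 of 16 genes higher and 1 lower (median 0.62), with Magi1 at 16.5 ± 1.3 CPM at day 10 against 7.69 ± 0.7 CPM at day 0. The other membrane proteins had 3 of 11 higher and 4 lower (median -0.18), and Ildr1 fell by 1.19 ± 0.26. The list of EpCAM, matriptase and inhibitors had 0 of 6 higher and 2 lower (median -0.40), and St14 fell by 0.77 ± 0.16. Nectin3, an adhesion protein of adherens junctions, rose by 1.29 ± 0.20. Enterocyte markers rose in 7 of 10, and proliferation markers fell in 6 of 8 and rose in 1. Of 4 tuft cell markers 4 rose, and of 7 enteroendocrine markers 6 fell. Of 6 endothelial markers 4 rose, of 5 fibroblast markers 4, of 4 smooth muscle markers 3, of 7 leukocyte markers 3 and of 10 hepatocyte markers 6. The enterocyte sums were 1184 to 3360 CPM at day 10 against 1013 to 1143 CPM at day 0, and the proliferation sums 704 to 957 CPM at day 10 against 1309 to 1416 CPM at day 0. The part of these cell types was not tested.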

How the data were processed

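In the deposited intestinal files the values are expected counts (estimated counts) by symbol, 36.7% of them with a fraction. In the deposited liver-labelled files they are whole counts by numeric identifier. Per the submitters' processing notes the tools were STAR and Partek and the build mm10, with no versions. Counting programs and strand are not given in the sources used here. Expected counts were rounded. Of the identifiers 24570 (99.9%) matched a symbol in RefSeq, and the 24 others, 3.93 to 22.1% of the counts of a library, stayed in library sizes.

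The 8 intestinal and 9 liver-labelled libraries were fitted separately, so no test crosses the tables, in R 4.3.3 with edgeR 4.0.16: TMM, filterByExpr (minimum count 10, minimum total 15), a group means model over all libraries of a table, quasi-likelihood F test, Benjamini-Hochberg over all genes tested (18207 and 16694). SE is the fold change divided by the square root of F, and 95% intervals are approximate, the fold change ± 2 SE. RPKM use the union of exons of GENCODE vM21, whose gene limits match those of the deposited intestinal files for 99.1% of 32788 symbols. Figures were drawn with matplotlib 3.10.9 in Python 3.11.15.

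Each result was repeated with DESeq2 1.42.0, with RLE size factors, without a filter, with a stricter filter (1 CPM in every library of a group, a mean of 5 CPM), with a block for the replicate number, in a fit of the compared groups alone, asking for a log2 fold change of 1 or more, without each library in turn and, for shares, with the longest transcript. Leaving out the 24 identifiers, or day 10 replicate 3 with only the groups compared, was chosen after seeing the data. The fit was also run on simulated counts in which few genes changed. Far more genes were called in these data, so that run does not show how the fit handles the scaling here.

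The members and lists were chosen with earlier results of these data known. Named genes are the members and up to 4 tested genes of each list with the smallest p in a comparison, other claudins with at least 1 CPM, and 3 similar genes per member. Not every gene so selected is printed: genes whose exons overlap another gene were left out, and the rest of the choice was made after values were seen. In no group did replicates agree within counting noise.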

Additional observations from a re-analysis of the deposited data

Results flagged for a closer look

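The effect of hepatectomy differed between crypts and IEC, by edgeR's quasi-likelihood test of the difference, for 6 of the 9 members tested, where 19.2% of all genes tested differed. The value of the effect in crypts minus that in IEC, on the log2 scale, was 0.42 for Tjp1, and -0.69 for Cldn4, -0.44 for Cldn15, -0.42 for Ocln, -0.29 for F11r and -0.20 for Cldn7. Left without sham crypts replicate 1, 3 of these calls remained, and those of Cldn4, F11r and Cldn7 were lost. That of Cldn4 was also lost without replicate 1 of the IEC after hepatectomy, and that of Cldn7 without any 1 of 4 other libraries.

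The same test set apart genes that act with the members. The difference was positive for Ybx3 (0.98), Pard3 (0.85), Rock1 (0.75) and Magi1 (0.74). It was negative for Spint1 (-0.69), Il13ra1 (-0.66), Prkcz (-0.51), Dsc2 (-0.50), St14 (-0.43), Cdh17 (-0.42), Epcam (-0.33), Marveld3 (-0.29) and Igsf5 (-0.25). The call was lost in 11 of 13 alternatives for Igsf5 and in 8 of 13 for Marveld3.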

How the results depend on the processing

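The fall of Cldn2 after hepatectomy was called in crypts and in IEC under all 14 alternatives that refit the data, while neither fall reached a log2 fold change of 1. The counts of members called under the replicate block were 5 and 6 for hepatectomy against sham in crypts and IEC, 6 for their difference, 7 and 6 for crypts against IEC after hepatectomy and after sham operation, and 5, 10 and 7 for day 10 against day 0, day 20 against day 0 and day 20 against day 10, the same counts as without it. Deviations of same-numbered libraries from their group means correlated by -0.0301 to 0.0421. In the intestinal groups of 2 libraries the deviations mirror each other, so these values cannot decide whether the numbers pair the samples. With a library left out the counts, in the same order, were 3 to 5, 4 to 6, 3 to 6, 5 to 6, 5 to 7, 3 to 5, 10 and 7. The lowest count came without sham crypts replicate 2 for hepatectomy against sham in crypts, without sham crypts replicate 1 for the difference, and without day 10 replicate 2 for day 10 against day 0. Without sham crypts replicate 1 the count for crypts was 4: Cldn23 and Ocln were lost there too, and Cldn1, which then passed the filter on low counts, was called. Asking for a log2 fold change of at least 1 left 0, 0, 0, 1, 1 and 2 members in the first 6 of these comparisons.

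Directions turned only for members' fold changes that had not passed the test, and the cause was not tested. For hepatectomy against sham in crypts, Cldn3 was at 0.0067 with DESeq2, 0.0066 with RLE size factors, 0.0038 under the stricter filter, 0.0013 with only the groups compared and -0.0526 to 0.0308 with a library left out. With no filter Cldn4 was at -0.0012 and Cldn15 at -0.012 in crypts, Cldn7 at -0.032 and Tjp1 at -0.058 in IEC, Ocln at 0.022 for crypts against IEC after sham operation, and Tjp1 at 0.014 and F11r at 0.021 for day 20 against day 10. The difference of effects for Cldn23 was -0.0051 under the stricter filter. With a library left out the ranges were -0.166 to 0.213 for Cldn4 in crypts, -0.0117 to 0.0501 for Cldn7 and -0.0357 to 0.0116 for Tjp1 in IEC, -0.0623 to 0.00845 for the difference of effects on Cldn2 and -0.0301 to 0.131 for that on Cldn23, -0.0754 to 0.0378 for Ocln in crypts against IEC after sham operation, -0.128 to 0.0277 for Cldn23 in the same after hepatectomy, and -0.24 to 0.105 for Tjp1 and -0.133 to 0.0233 for F11r between day 20 and day 10. Where a group was left with 1 library, the spread comes from the remaining groups. With no filter the median shift over all genes was -0.046 in crypts and -0.062 in IEC for hepatectomy against sham. It was 0.042 for crypts against IEC after sham operation, -0.21 at day 10 against day 0 and 0.11 at day 20 against day 10. With RLE size factors it was 0.021 for hepatectomy against sham in crypts.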
